A study of Mus musculus with 10 samples.

Results

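Calcineurin was followed through 6 genes for its subunits and its regulators, Ppp3ca, Ppp3cb, Ppp3cc, Ppp3r1, Rcan1 and Rcan2, in the hippocampus of aged mice. All probe sets that the array's annotation assigned to only 1 of these genes were taken, which gave 5 probe sets, 1 each for Ppp3ca, Ppp3cb, Ppp3cc, Ppp3r1 and Rcan1, of 12488 on the array. The annotation used here gave none for Rcan2. The set of genes was chosen by the diet comparison of these same arrays, in which the signal of Ppp3cb had one of the smallest p-values. Their diet differences are therefore a description, and the p-values printed for them are positions in the fit across all probe sets, not independent tests.

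Hippocampi came from male C57BL/6 mice aged 30 months. Long-term calorie restriction was given to 5 mice and a control diet to 5 others, and total RNA of each mouse was measured on its own Affymetrix oligonucleotide array. No source used here gives how strong the restriction was or when it began. All signals are from whole tissue, so fewer cells of a type and less RNA per cell cannot be told apart.

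Calcineurin is the protein phosphatase that is switched on by calcium and calmodulin. It pairs a catalytic A subunit, encoded by Ppp3ca, Ppp3cb or Ppp3cc, with a calcium-binding regulatory B subunit, which outside testis is encoded by Ppp3r1. In hippocampal neurons it is abundant, opposes kinases at synapses and is needed for long-term depression, and its activity sends NFAT transcription factors into the nucleus. Proteins of the Rcan family bind the catalytic subunit and restrain it, and 1 start site of Rcan1 is itself switched on by NFAT, a feedback loop known from muscle, endothelial and neuronal cells.

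Start-site sequences are shown for Ppp3cb, the member with the largest diet difference, and for Rcan1, whose start sites differ in their response to NFAT. They are the 250 bases before each start, from RefSeq (GRCm38.p6), on the minus strand of chromosomes 14 and 16. The Ppp3cb window is chr14:20546574-20546823, the Rcan1 upstream window chr16:92466170-92466419 and the Rcan1 internal window chr16:92400079-92400328. Capitals mark matches to the NFAT core GGAAA on either strand, read as GGAAA or TTTCC.
Ppp3cb: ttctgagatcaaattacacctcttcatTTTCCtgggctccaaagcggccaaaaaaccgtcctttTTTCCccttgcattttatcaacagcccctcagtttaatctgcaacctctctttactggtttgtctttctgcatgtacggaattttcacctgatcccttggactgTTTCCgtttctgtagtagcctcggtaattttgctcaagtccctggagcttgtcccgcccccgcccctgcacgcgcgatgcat
Rcan1 upstream: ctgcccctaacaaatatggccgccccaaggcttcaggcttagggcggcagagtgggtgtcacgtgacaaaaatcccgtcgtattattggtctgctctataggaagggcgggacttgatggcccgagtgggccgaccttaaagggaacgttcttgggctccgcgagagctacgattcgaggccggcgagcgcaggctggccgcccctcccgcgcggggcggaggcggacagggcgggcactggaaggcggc
Rcan1 internal: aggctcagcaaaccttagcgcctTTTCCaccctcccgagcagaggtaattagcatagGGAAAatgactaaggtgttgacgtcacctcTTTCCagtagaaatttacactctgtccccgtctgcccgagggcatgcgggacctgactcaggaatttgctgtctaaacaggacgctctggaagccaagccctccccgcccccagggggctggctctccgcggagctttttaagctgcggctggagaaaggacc
The core was found at 3 places in the Ppp3cb window, at 0 in the upstream and at 3 in the internal Rcan1 window. Of 32851 such windows in the table, 55.6% held at least 1 match and 6.4% held 3 or more. The Ppp3r1 window held 0. A match of these 5 letters is a description of the sequence and not a site. Which transcript of Rcan1 or Ppp3cb its probe set reads was not analysed here.

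Array signals are MAS5 intensities, which have no unit and cannot be compared between genes. Each change is a log2 value, calorie restricted minus control, given relative to the median change of the 7453 probe sets tested, which was -0.15. The p-values test the change against 0 before that median is taken off. A call means a Benjamini-Hochberg adjusted p under 0.05 in limma over all 7453. All 5 probe sets passed the filter on low signal, which kept means of at least 6.85 on the log2 scale, and the mean of Ppp3cc, 7.27, lay nearest to it.

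RNA quality moved with the diet. It was measured as the log2 difference between the 3' and 5' control probe sets of Gapdh and Actb, which grows when RNA is broken. Calorie restricted replicates 1 to 5 had 0.79, 0.78, 5.20, 1.52 and 6.11, while control mice had -0.12 to 0.45 (exact two-sided permutation p = 0.00794, the smallest these arrays allow; adjusted p = 0.00794 over 2 measures). The log2 signal of the bacterial spike-in controls averaged 13.05 ± 0.47 in calorie restricted mice and 11.12 ± 0.56 in control mice (SD, n = 5 each), with the same exact permutation p. The 2 diets do not overlap in either measure. Their part in any result here was not tested beyond the fits that take them as covariates and the counts without calorie restricted replicates 3 and 5.

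Of the 5 genes measured, Ppp3cb, the beta catalytic subunit, was lower in calorie restricted mice, and the other 4 did not pass. This was 1 call of 5, against 11.8% of all tested probe sets called in either direction, 4.11% called higher and 7.74% called lower. The median relative change of the 5 was 0.14, where all tested probe sets have 0 by definition. The plot of log2 signals by array shows all 5.

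**Figure D1:**
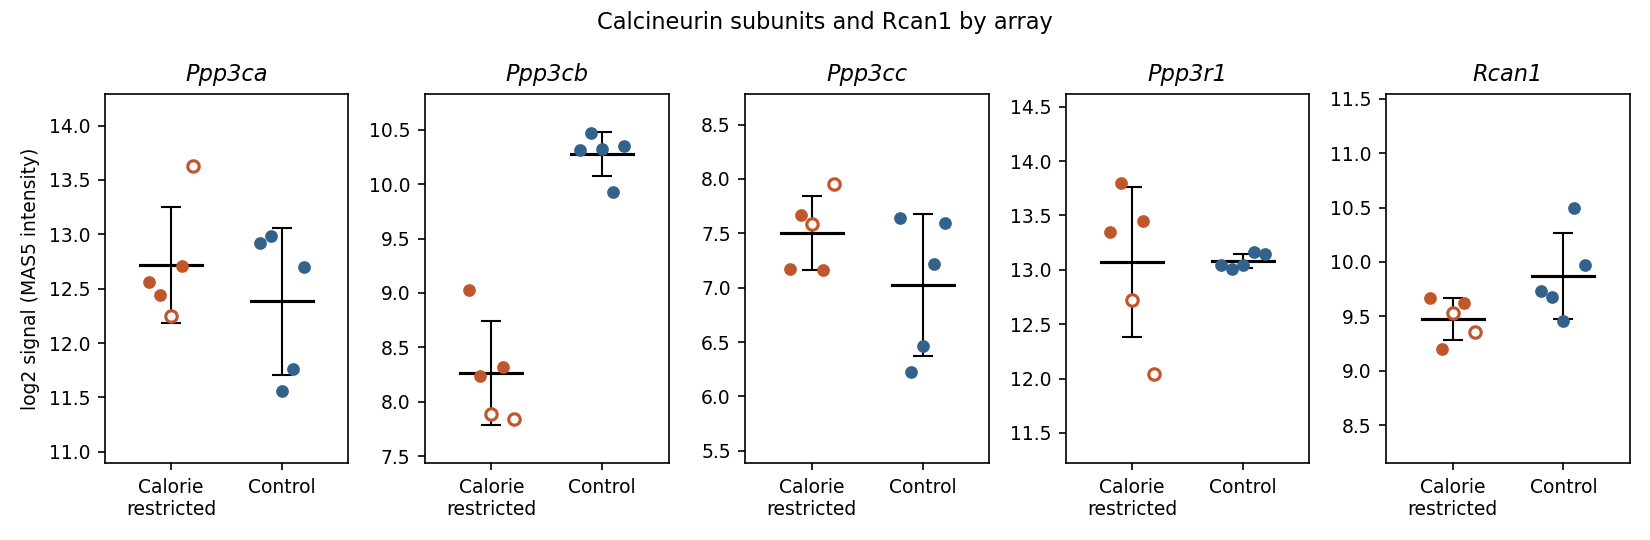
Log2 MAS5 signal of the 5 measured genes, with calorie restricted arrays left of control arrays (1 point per mouse, 5 per diet). Lines are means and bars SD, open points are calorie restricted replicates 3 and 5, and every panel spans the same log2 range. In the Ppp3cb panel all calorie restricted points lie below all control points, and in the Ppp3r1 panel the control points sit close together.

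Among the catalytic subunits, Ppp3cb had intensities of 523, 302, 237, 320.4 and 229 in calorie restricted replicates 1 to 5, against 1276, 1423, 1280.1, 977 and 1309 in control replicates 1 to 5. The highest calorie restricted array lay below the lowest control array, and the diets did not overlap, in one direction or the other, in 14.3% of all tested probe sets. Calorie restricted mice averaged 322 ± 119 and control mice 1253 ± 165 (SD, n = 5 each). The log2 change was -1.86 ± 0.23 (SE), or 3.64-fold lower, with a 95% interval of -2.37 to -1.36 (limma adjusted p = 0.00204, the fifth smallest p). The calorie restricted arrays of lowest RNA quality, replicates 3 and 5, were also the 2 lowest for Ppp3cb, and replicates 1, 2 and 4 lay below every control array as well. Replicates 1, 2 and 4 also exceeded every control array in both quality measures. A fit without replicates 3 and 5 therefore cannot part diet from RNA quality. Without replicates 3 and 5 the change was -1.64 (limma adjusted p = 0.00241), with RNA quality as a covariate it was -1.54 (adjusted p = 0.00537), and with RNA quality and the spike-in signal together it was -1.78 and did not pass (adjusted p = 0.161).

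Ppp3ca, the alpha catalytic subunit and the main form in forebrain neurons, had intensities of 6051, 5569, 4880.4, 6679 and 12685 in calorie restricted mice. In control mice it had 7765, 8125, 3019, 3468 and 6632. The diets overlap widely, and within each diet single mice stand apart: replicate 5 is far above the other calorie restricted mice, and control replicates 3 and 4 are at about the same low level. The log2 change was 0.49 ± 0.33 (SE), with a 95% interval of -0.24 to 1.21, and missed the threshold (limma adjusted p = 0.512). Its sign was not firm, at -0.011 under quantile normalization and -1.23 with both quality measures as covariates. Control replicates 3 and 4 also had the lowest spike-in signals of all arrays, 10.50 and 10.62, and whether this bears on Ppp3ca was not tested.

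Ppp3cc, the gamma catalytic subunit, is best known from testis and was the dimmest of the 5 probe sets. It had intensities of 144, 203, 192, 143 and 248 in calorie restricted mice and 200, 74.6, 88.5, 149 and 194 in control mice. The control range contains 3 of the 5 calorie restricted arrays. The log2 change was 0.63 ± 0.35 (SE), with a 95% interval of -0.12 to 1.38 (limma adjusted p = 0.360), and it was -0.32 with both covariates. Within single arrays, the log2 signal of Ppp3ca minus that of Ppp3cb averaged 4.46 ± 0.82 in the calorie restricted group and 2.11 ± 0.57 in controls (SD, n = 5 each), without overlap. Ppp3ca minus Ppp3cc averaged 5.21 ± 0.46 in the calorie restricted group and 5.36 ± 0.84 in controls, with overlap. These differences show how unequally the probe sets changed and say nothing of the amounts of the 3 subunits. Every pair of measured members with Ppp3cb was without overlap and every other pair overlapped. The difference between Ppp3ca and Ppp3cb thus restates the change of Ppp3cb, by which the set was chosen.

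The regulatory subunit Ppp3r1, which the catalytic subunits need for activity, differed between the diets in its spread. It had intensities of 10416, 14235, 6752, 11170.4 and 4227 in calorie restricted replicates 1 to 5, against 8469, 8251, 8455, 9154 and 9031 in control replicates 1 to 5. The calorie restricted mice fell on both sides of the narrow control range, with replicates 1, 2 and 4 above it. Replicates 3 and 5, the arrays of lowest RNA quality, lay below that range. Whether RNA quality bears on the spread was not tested. Its log2 signals had an SD of 0.69 over calorie restricted mice and 0.065 over control mice, a ratio of 10.6, against a median ratio of 1.65 over all tested probe sets, and 99.1% of these had a smaller ratio. Its control SD was among the smallest, with 0.818% of tested probe sets below it, and its calorie restricted SD was above that of 72.8%.

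The log2 change of Ppp3r1 was 0.14 ± 0.28 (SE), with a 95% interval of -0.46 to 0.75 (limma adjusted p = 0.987). Without calorie restricted replicates 3 and 5 it was 0.56 (adjusted p = 0.056), with RNA quality as a covariate 0.77 (adjusted p = 0.0503), and neither passed. Without calorie restricted replicate 2 it was -0.029, and under quantile normalization -0.40 (limma adjusted p = 0.341). A diet difference in Ppp3r1 thus had no firm sign on these arrays. The plot against RNA quality sets it beside Ppp3cb and Ppp3ca.

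**Figure D2:**
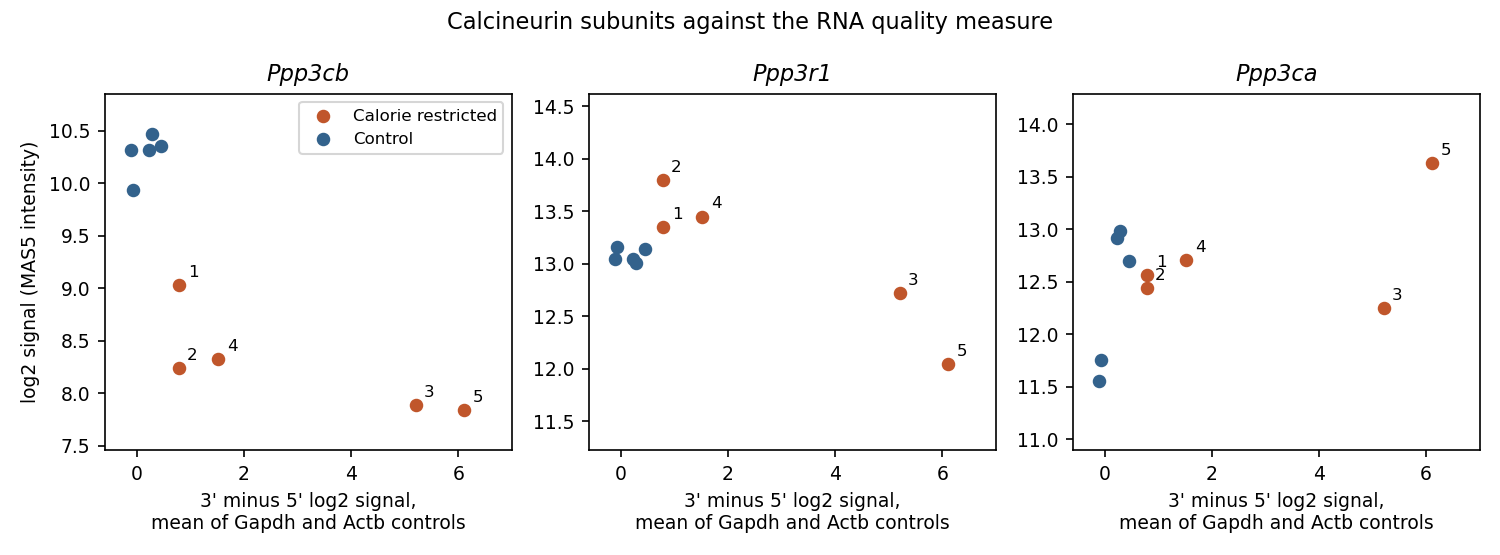
Log2 MAS5 signal of Ppp3cb, Ppp3r1 and Ppp3ca (vertical axes, equal spans) against the RNA quality measure, the log2 3' minus 5' signal averaged over the Gapdh and Actb controls (horizontal axes). Each point is 1 mouse and numbers are calorie restricted replicates. Calorie restricted replicates 3 and 5, at 5.20 and 6.11, are the lowest points for Ppp3r1 and Ppp3cb, while for Ppp3ca replicate 5 is the highest.

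Rcan1, the inhibitor that calcineurin activity can induce, had intensities of 812, 589, 739, 789.9 and 653 in calorie restricted mice and 851, 820.1, 704, 1445 and 1006 in control mice. The highest value is that of control replicate 4, and 3 of the 5 calorie restricted arrays lie within the control range. The log2 change was -0.24 ± 0.21 (SE), with a 95% interval of -0.69 to 0.21 (limma adjusted p = 0.215). It was -0.082 without control replicate 4 and 0.23 with both covariates. Its log2 signals had an SD of 0.19 over calorie restricted mice and 0.40 over control mice, and 5.21% of tested probe sets had a smaller ratio of the 2.

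Other genes of the pathway were described from lists of 53 genes, of which 28 had a tested probe set named for 1 gene. Of these 28, 3 passed, 2 higher and 1 lower, or 10.7% beside the 11.8% of all tested probe sets. Their median relative change was 0.075. The arrays of the diets did not overlap in 5 of the 28, namely Rcan3, Fkbp1a, Cib1, Dnm1 and Bad. Over all tested probe sets this share was 14.3%. Leaving out calorie restricted replicates 3 and 5, the counts were 1 of the 5 calcineurin genes and 2 of the pathway genes. In that fit 805 of all tested probe sets passed, against 883 with all arrays. The plot of pathway changes shows all 28 beside the calcineurin genes.

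**Figure D3:**
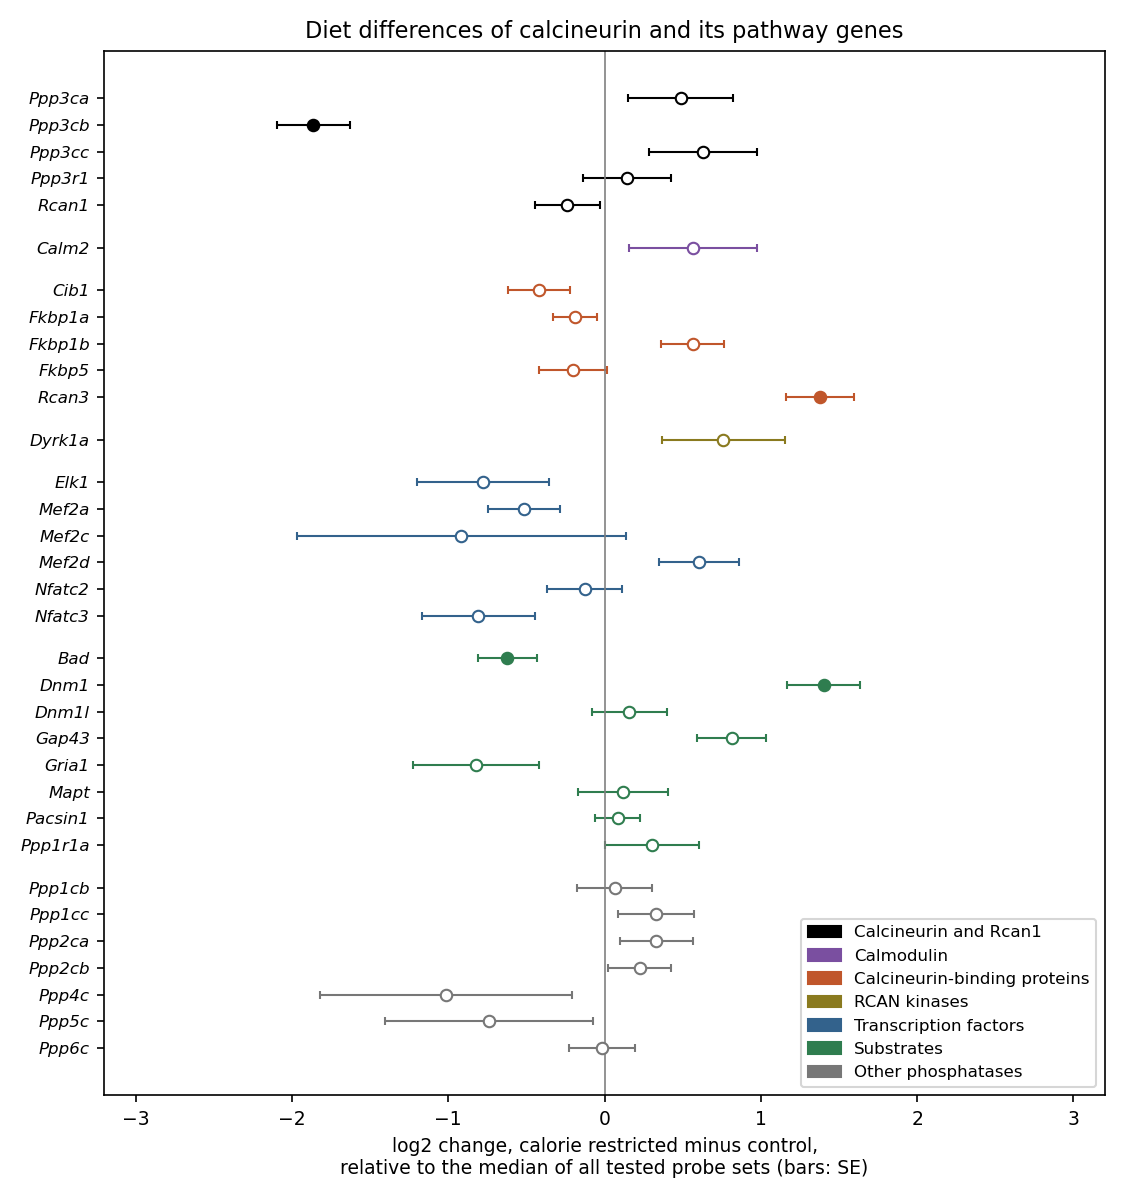
Log2 change, calorie restricted minus control and relative to the median of all tested probe sets, for the 5 measured calcineurin genes and 28 pathway genes (horizontal axis; bars are SE, n = 5 per diet). Filled points passed at an adjusted p under 0.05 and colours mark the lists. Filled points are Ppp3cb and Bad on the lower side and Rcan3 and Dnm1 on the higher side.

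Proteins that bind or inhibit calcineurin included the third Rcan family gene, Rcan3, which encodes a calcineurin inhibitor and was higher in calorie restricted mice. It had intensities of 510.3, 429, 642, 563 and 493 in calorie restricted replicates 1 to 5, against 241, 237, 143, 265 and 257 in control replicates 1 to 5. All calorie restricted arrays lay above all control arrays. The log2 change was 1.38 ± 0.22 (SE), or 2.60-fold higher (limma adjusted p = 0.0101). Leaving out calorie restricted replicates 3 and 5 gave 1.26 (limma adjusted p = 0.0188). With both quality measures as covariates it had 1.11 and missed the threshold (limma adjusted p = 0.519).

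The other 4 tested genes of that list did not pass. The immunophilin Fkbp1a, whose protein carries the drug FK506 to calcineurin, had a log2 change of -0.19 ± 0.14 (SE) and Cib1, a calcium-binding protein related to the B subunit, had -0.42 ± 0.20 (limma adjusted p = 0.117 and 0.0737). Calm2, a gene for calmodulin, was the 1 calmodulin gene measured and had 0.57 ± 0.41 (limma adjusted p = 0.506). Dyrk1a, a kinase that phosphorylates Rcan1 and NFAT, had 0.76 ± 0.39 (limma adjusted p = 0.307).

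Of 6 tested transcription factors that calcineurin regulates, 0 passed, beside 11.8% of all tested probe sets. The median relative change of the 6 was -0.65. Nfatc3, an NFAT factor of neurons, had a log2 change of -0.81 ± 0.36 (SE) and Mef2a, a factor that limits excitatory synapse number, had -0.52 ± 0.23 (limma adjusted p = 0.0939 and 0.0742). The mean log2 signal of Nfatc3 in calorie restricted mice, 6.85, was at the lowest mean tested, so the size of its change is uncertain.

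Of 8 tested neuronal substrates of calcineurin, 1 was higher and 1 was lower, with a median of 0.14. Over all tested probe sets 4.11% were called higher and 7.74% lower. Dnm1, the dynamin that pinches off synaptic vesicles and is dephosphorylated by calcineurin when terminals are stimulated, was higher. It had intensities of 33293, 31070.3, 44763, 36901 and 65027 in calorie restricted replicates 1 to 5, against 14065, 18359, 19900, 22277 and 12837 in control replicates 1 to 5. The diets do not overlap, and the highest value is that of calorie restricted replicate 5, whose RNA quality was lowest. The log2 change of Dnm1 was 1.40 ± 0.24 (SE; limma adjusted p = 0.0116), and 0.72 ± 0.24 in its other probe set, which did not pass (limma adjusted p = 0.136). Dnm1 did not pass under quantile normalization, where it had 0.57, or with RNA quality as a covariate, at 0.95 (limma adjusted p = 0.0988 and 0.0602).

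Bad, a cell death protein that calcineurin can activate, was lower, with intensities of 422, 507, 337, 323 and 319 in calorie restricted mice and 522, 695, 631, 655 and 729 in control mice. The log2 change was -0.62 ± 0.19 (SE; limma adjusted p = 0.0259), and it missed the threshold in 11 of 18 settings. The other tested probe set of Bad had a larger and less certain change of -1.87 ± 1.08, which did not pass (limma adjusted p = 0.218). The call of the brighter probe set was lost without calorie restricted replicate 3 or 4 or control replicate 2, 3, 4 or 5, each left out alone, with changes from -0.63 to -0.56 and limma adjusted p from 0.0553 to 0.0689. Without calorie restricted replicates 3 and 5 together Bad had -0.54 (limma adjusted p = 0.055). Gap43, a growth cone protein, had 0.81 ± 0.22 (SE) and did not pass (limma adjusted p = 0.0685). Gria1, an AMPA receptor subunit, had -0.82 ± 0.40 in its brighter probe set, which did not pass, and -3.03 ± 0.86 in the other, which did (limma adjusted p = 0.123 and 0.0354).

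Among catalytic subunits of other serine/threonine phosphatases, 0 of 7 tested genes passed, beside 11.8% of all tested probe sets. The median relative change of the 7 was 0.065. Ppp4c and Ppp5c had log2 changes of -1.01 ± 0.80 and -0.74 ± 0.66 (SE; limma adjusted p = 0.334 and 0.371), and Ppp1cb and Ppp2ca, which encode subunits of protein phosphatases 1 and 2A, had 0.065 ± 0.24 and 0.33 ± 0.23. A second probe set of Ppp6c passed at -1.01 ± 0.28 (limma adjusted p = 0.0245) while the brighter one had -0.017 ± 0.21.

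Markers of cell types were set beside Ppp3cb, since calcineurin is chiefly neuronal in brain. For reference, 4.11% of all tested probe sets were called higher and 7.74% lower, and in 14.3% the diets did not overlap. Sums take the brightest probe set of every listed gene that has one, also of genes below the filter on signal. Bright probe sets weigh most in a sum. The brightest were Snap25 among pan-neuronal and Aldoc among astrocyte genes, and neither of these passed. Of 7 tested pan-neuronal genes, 0 were higher and 3 were lower, namely Syt1, Map2 and Nefl, and the median change was 0.17. Their summed intensity ran from 36779 to 47353 over calorie restricted mice and from 33203 to 44841 over control mice, with 0 markers at 0. Of 6 tested genes of pyramidal and granule neurons, 1 was higher, Tbr1, and 2 were lower, Nptx1 and Neurod6, with a median of -0.73 and sums of 2913 to 6128 in calorie restricted and 4621 to 7499.7 in control mice. In that list 7 of 8 genes had a probe set, and Prox1, a marker of dentate granule cells, lay below the filter on signal. Of 5 tested genes of inhibitory neurons, 3 were higher, Npy, Slc32a1 and Pvalb, and 0 lower, with a median of 0.85. The summed intensity of that list, which takes in Gad2 below the filter on signal, did not overlap between the diets. It was 22148 to 28018 in the calorie restricted group and 13435 to 19121 in controls.

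The summed intensity of astrocyte genes did not overlap either, at 22471 to 28970 over calorie restricted mice and 16354 to 21220 over control mice, although 0 of 6 tested genes were higher and 1, Aqp4, was lower, with a median of 0.18. Of 7 tested microglial genes 0 were higher and 2 lower, Cx3cr1 and Cd68, with a median of -0.71 and sums of 6743 to 8879 in the calorie restricted group and 7834 to 10735 in controls. Of 5 tested oligodendrocyte genes 0 were higher and 1 was lower, Cldn11, with a median of -0.64 and overlapping sums, and of 4 tested endothelial genes 0 passed, with a median of 0.34. Choroid plexus and ependymal genes were present in both diets, with 0 of 5 higher and 2 lower, Folr1 and Foxj1, and a median of -1.36. The sums of that list were 1216 to 15733 in calorie restricted and 3568 to 12028 in control mice. The part of cell makeup in the diet differences was not tested.

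Across the processing settings, Ppp3cb, Rcan3, Dnm1 and Bad kept their sign in all 18 settings that were run. Values of Ppp3cb ran from -2.05 to -1.54 and those of Rcan3 from 1.11 to 1.51, as the plot of settings shows. Those of Dnm1, which is not plotted, ran from 0.57 to 1.61, and those of Bad, also not plotted, from -0.72 to -0.47. Ppp3ca, Ppp3cc, Ppp3r1 and Rcan1 each changed sign in 1 or 2 settings.

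**Figure D4:**
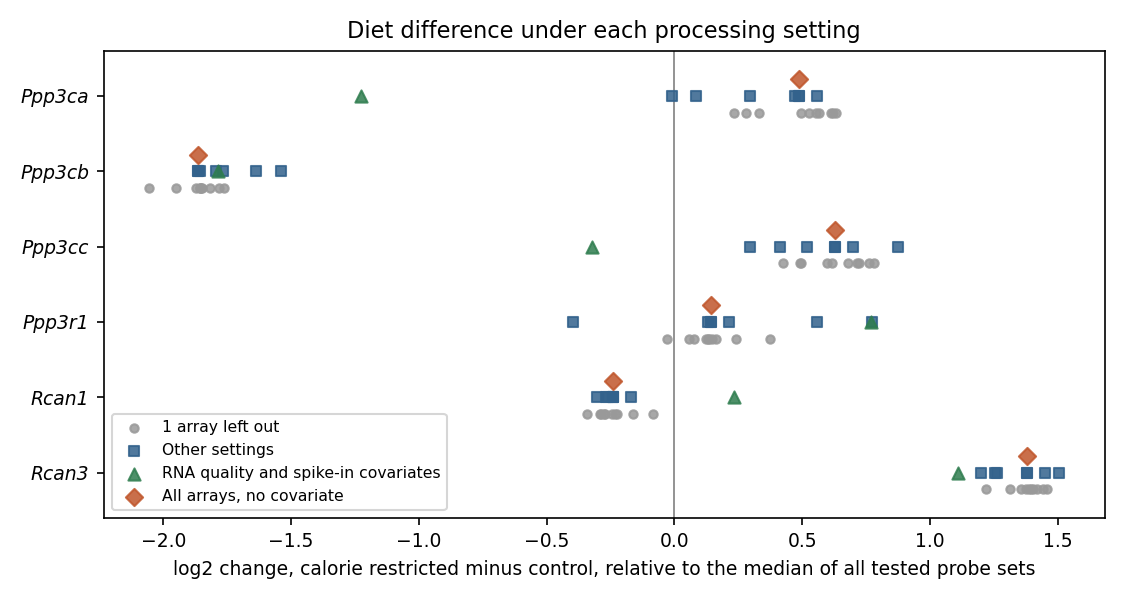
Log2 change, calorie restricted minus control and relative to the median of all tested probe sets, for the 5 measured calcineurin genes and Rcan3 under each setting (horizontal axis). Diamonds are all arrays without covariates, circles leave out 1 array, triangles take both quality measures as covariates, and squares are the other settings. Ppp3cb stays between -2.05 and -1.54, while the triangle of Ppp3ca lies at -1.23 against 0.49 for its diamond.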

How the data were processed

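The deposited intensity values are on a linear scale and were made by the authors with MAS5, as the submitters' processing notes say. No version or setting of MAS5 is given in the sources used here. The deposited intensities had a mean of 500.2 to 500.4 on each array with 2% left out at either end. Values under 1 (41 of 124880) were set to 1 and log2 was taken. The 66 Affymetrix control probe sets and those with a mean under the 40th percentile were dropped, so that 7453 of 12422 were tested. Symbols came from the platform annotation, updated through RefSeq gene numbers. There were 10833 probe sets with 1 symbol, of which 10817 were matched, 396 with several and 1193 with none.

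Diets were compared in limma 3.58.1 (R 4.3.3) with lmFit and eBayes, a variance trend and no covariate, and adjusted over 7453 probe sets. Array measures had an exact permutation test over 252 splits. The members, gene lists, tests and alternatives were chosen with earlier results of these data known. Pathway genes are represented by their brightest tested probe set. Named are all members, pathway genes that passed, up to 2 more per list with the smallest p, and the 3 genes whose deviations were most like each member's. Ppp1cb, Ppp2ca, Ppp6c and the other probe sets of named genes were added after their values were seen. On simulated data for this comparison (7453 probe sets), the fit recovered 36% of 50 probe sets changed by 1 on the log2 scale. It recovered 88% of 50 changed by 2, and of its 114 calls 3 were false. Those rates belong to the simulated data alone. In the arrays, the SD of calorie restricted mice was larger by a median ratio of 1.65. Diet also had an R2 of 0.85 on both quality measures. The simulation does not tell how many calls on these arrays are false. The number of arrays limits the precision, and replicates are separate mice.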

Additional observations from a re-analysis of the deposited data

How the results depend on the processing

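The single call among the 5 calcineurin probe sets, Ppp3cb, was made in 17 of 18 settings and in every fit with 1 array left out. With both quality measures as covariates 0 of the 5 passed in limma, as did 0 pathway genes and 0 of all tested probe sets (907 had an unadjusted p under 0.05); the R2 of diet on both covariates was 0.85. The count over all tested probe sets was 883 as reported, 333 with RNA quality as a covariate and 268 to 1278 with 1 array left out. It was lower by more than 1.5 times without calorie restricted replicate 3 (405) or 4 (566) and without control replicates 1 to 5 (414, 268, 272, 289 and 546). Pathway genes past the threshold numbered 3 as reported, 5 without a filter on signal, and 2 to 5 with 1 array left out, the 5 being without calorie restricted replicate 2; with probe sets of a gene averaged there were 3. Signs turned in Ppp3ca under quantile normalization (-0.011) and with both covariates (-1.23), in Ppp3cc with both (-0.32), in Rcan1 with both (0.23), and in Ppp3r1 under quantile normalization (-0.40); with 1 array left out Ppp3r1 ran from -0.029 to 0.38. Under quantile normalization 319 were higher and 284 lower, against 306 and 577. The cause was not tested. With the replicate number as a block 540 passed and Ppp3cb kept its call (limma adjusted p = 0.0182). The labels tie same-numbered mice by the number alone and do not say whether they shared a batch. Correlations of deviations between same-numbered mice ran from -0.076 to 0.17. Averaging the probe sets of a member changed nothing, as each has 1. The settings for Rcan3, Dnm1 and Bad were added after their values were seen.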

Other observations

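Within diets, the 5 calcineurin genes did not move as a unit. Pearson correlations of their log2 deviations from the diet means, over 10 arrays, ran from -0.45 to 0.51 among the 10 pairs. The highest was between Ppp3cb and Ppp3r1, which share the low values of calorie restricted replicates 3 and 5, and it was -0.73 over the 8 arrays without these. Ppp3ca and Ppp3r1, the subunits of the main neuronal enzyme, had -0.45, and -0.22 without them. All probe sets share the arrays, their scaling and their RNA quality, so these values are descriptions.

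The genes most like each member were taken as those with the highest correlation of such deviations over 10 arrays, among 6730 probe sets, so high values come with the choice. Ppp3cb was most like Ilvbl, Bbs9, a subunit of the ciliary BBSome, and Tln1, the adhesion protein talin (r = 0.97, 0.91 and 0.91). Of these, Bbs9 and Tln1 were also lower in calorie restricted mice, with log2 changes of -1.39 ± 0.38 and -1.05 ± 0.27 (SE; limma adjusted p = 0.0267 and 0.0205), while Ilvbl had 0.45 ± 0.22 and did not pass (adjusted p = 0.361). Ppp3ca was most like Nav2, a navigator protein of growing axons, Rgs8, a regulator of G protein signalling, and Zranb2 (r = 0.94, 0.94 and 0.93), and the probe sets of Rgs8 and Zranb2 can match several transcripts. Ppp3r1 was most like Dnal4, Mydgf and Ptcd2 (r = 0.99, 0.98 and 0.98), which had 0.86, 0.72 and 0.67 without calorie restricted replicates 3 and 5. Ppp3cc was most like Pde9a, a cyclic GMP phosphodiesterase, Sec23ip and Tbcb, a tubulin folding cofactor (r = 0.88 each), and Rcan1 was most like Tm2d3, Cd53, a leukocyte tetraspanin, and Incenp (r = 0.86, 0.85 and 0.83). Nav2 and Tbcb were higher in calorie restricted mice, at 1.14 ± 0.28 and 2.01 ± 0.40 (SE; limma adjusted p = 0.0401 and 0.0182), though Ppp3ca and Ppp3cc were not called. The other genes most like Ppp3ca, Ppp3cc, Ppp3r1 and Rcan1 did not pass.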
